A study of Mus musculus with 6 samples.

Results

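The genes described here encode the protein subunits of the mitochondrial ribosome. They were taken from the gene count table by symbol, as every row named Mrpl or Mrps followed by a number and optional lower-case letters. This rule found 77 of the 35976 genes in the table, 48 with an Mrpl symbol and 29 with an Mrps symbol. Polyadenylated RNA was sequenced from mouse embryonic chondrocytes of hind limb articular cartilage (strain C57BL/6 x 129S4/SvJae, embryonic day 18.5) that had gone through 16 population doublings on tissue culture plastic. One group of 3 libraries carried a transgene for histone H3.3 with lysine 9 changed to methionine (H3K9M), which the labels describe as suppressing H3K9 methylation. The other group of 3 libraries carried a transgene for wild-type H3.3 (H3WT). Both transgenes are doxycycline-inducible, and both groups received doxycycline at 2 µg/ml throughout, so neither group is free of the drug or of extra H3.3. The H3K9M libraries are replicates 1, 3 and 5 and the H3WT libraries are replicates 1, 2 and 4. The labels used here do not say whether replicates were separate animals or cultures, so p-values measure the spread between these libraries only. In bulk RNA, fewer cells that express a gene and less of its RNA per cell cannot be told apart.

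Mitochondria hold their own ribosome, which translates the respiratory chain and ATP synthase subunits encoded by mitochondrial DNA. Its ribosomal RNAs come from mitochondrial DNA, but all of its proteins are encoded in the nucleus, made in the cytosol and imported. The small subunit reads the messenger RNA, and the large subunit forms peptide bonds and holds the exit tunnel that opens at the inner membrane. Many of the proteins descend from bacterial ribosomal proteins, and others are found in mitochondria alone. Mrps18a and Mrps30 encode proteins that sit on the large subunit in spite of their names, and the product of Mrps36 is now placed in the oxoglutarate dehydrogenase complex of the citric acid cycle. Counted by the place of the protein, 50 members belong to the large subunit and 26 to the small subunit, with Mrps36 in neither.

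Total counts ran from 15113675 to 19606082 per library. The label was checked against 15 chondrocyte markers in the table, all with counts, of which Chad was at 0 in 1 library. Their summed level was 7417, 7937 and 11645 CPM (the reads of a gene relative to the scaled size of its library) in H3K9M replicates 1, 3 and 5, and 7322, 19544 and 13751 CPM in H3WT replicates 1, 2 and 4. H3WT replicate 2 thus stood well above the rest in these markers. The members' median log2 fold change and their counts at an unadjusted p under 0.05 and without overlap are also given without that library. Fibroblast markers were high: the 8 of them, among them the collagen I and III genes, summed to 30223, 11898 and 23139 CPM in H3K9M replicates 1, 3 and 5 and to 34717, 9902 and 24932 CPM in H3WT replicates 1, 2 and 4. This was above the chondrocyte marker sum in every library but H3WT replicate 2. The median log2 fold change of the fibroblast markers was -0.08, and the groups overlapped for every one. For the chondrocyte markers the median was -0.89, with 14 of the 15 lower in H3K9M, and the groups again overlapped for every one. Of these 15, Col9a1 and Col9a2 were lower at an unadjusted p under 0.05 by edgeR, as were 5.77% of all tested genes. Of the other lists, the 6 endothelial markers had at most 14 counts together in any library, and the 9 macrophage and blood markers summed to between 5.83 and 22.9 CPM, with Ptprc, Adgre1, Alas2 and Hbb-bs at 0 in all 6 libraries. The 10 skeletal muscle markers had a summed level of 137, 205 and 22.7 CPM in H3K9M replicates 1, 3 and 5 against 6.46, 15.3 and 3.24 CPM in H3WT replicates 1, 2 and 4. Pax7 was at 0 in every library.

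All 77 members passed the filter on low counts. A member had between 61 and 1365 counts in a library, with a median of 482. Per kilobase of transcript, the members had a median of 18.7 CPM over the 6 libraries, against 8.50 CPM per kilobase for all tested genes with a known length and 406 for the cytosolic ribosomal protein genes. Mrpl52 (104 CPM per kilobase), Mrpl54 (70.3) and Mrpl33 (65.9), all of the large subunit, were the most abundant per kilobase. Mrpl47 (1.94), Mrpl1 (3.09) and Mrps35 (3.66) were the least abundant. The length used here is that of the longest protein-coding transcript of a gene, so a gene with an unusually long annotated isoform appears low on this scale.

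Most of the mitochondrial ribosomal protein genes were slightly higher in the H3K9M libraries, and no single gene passed the test across all genes. The log2 fold change (H3K9M minus H3WT) was above 0 for 69 of the 77 members and below 0 for 8, whereas 49.6% of all 13761 tested genes were above 0. That share was 68.5% among tested genes in the shortest of 5 length classes. This class held 49 of the members, 42 of them above 0. The median was 0.31 for the members and -0.0029 for all tested genes, and the members ranged from -0.18 for Mrpl48 to 1.01 for Mrpl33. By edgeR's quasi-likelihood test with Benjamini-Hochberg adjustment, 0 members had an adjusted p under 0.05, as did 0 of all tested genes (0%); the smallest adjusted p of a member was 0.170, for Mrpl33. At an unadjusted p under 0.05, 20 members were higher and 0 were lower in H3K9M. Of all tested genes, 6.42% were higher and 5.77% were lower at that threshold. All 3 H3K9M libraries lay above all 3 H3WT libraries for 26 members, and for 0 members did they all lie below. The shares of all tested genes with groups apart in this way were 10.7% higher and 8.68% lower. The count of 20 became 10 without H3WT replicate 4 (5.5% of all tested genes), 11 without H3K9M replicate 1 (4.35%) and 11 with DESeq2's Wald test (4.87%). The count of 26 became 44 without H3WT replicate 2, where the share of all tested genes apart and higher also became larger, at 19.5%. Short transcripts as a class were higher in H3K9M, and with an offset on transcript length the median of the members was 0.11.

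**Figure D1:**
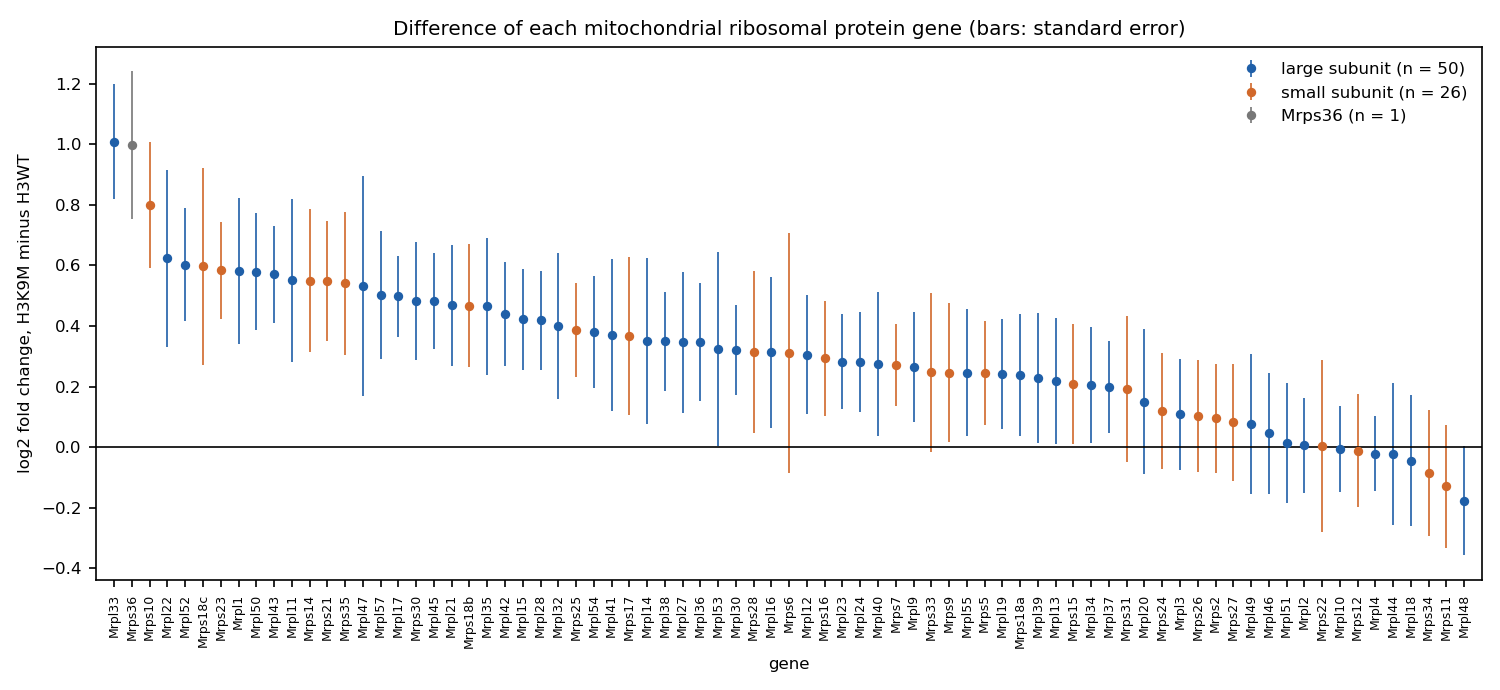
Log2 fold change (y axis, H3K9M minus H3WT, edgeR) of each of the 77 mitochondrial ribosomal protein genes (x axis), ordered by size. Points are estimates and bars are 1 standard error, with blue for the large subunit, orange for the small subunit and grey for Mrps36. Of the 77 points, 69 lie above 0, and the range is -0.18 to 1.01.

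Summed over the 77 members, the level was 2487, 2358 and 2305 CPM in H3K9M replicates 1, 3 and 5. It was 1945, 2125 and 1748 CPM in H3WT replicates 1, 2 and 4. The lowest H3K9M library thus lay above the highest H3WT library, and the ratio of the group means was 1.23 (2384 ± 93.5 against 1939 ± 188 CPM, SD, n = 3 each). As a share of all counts, without scaling between libraries, the members took 0.246%, 0.253% and 0.230% in H3K9M and 0.186%, 0.219% and 0.167% in H3WT. H3K9M replicate 5, with 22.7 CPM of muscle markers against at most 15.3 CPM in an H3WT library, was above every H3WT library by both measures. With H3K9M replicates 1 and 3 left out together, an alternative chosen after seeing the data, the median log2 fold change of the members was 0.28, with 62 of 77 above 0. The lone H3K9M library was then assumed to vary like the others, and 3 members were higher at an unadjusted p under 0.05, against 1.95% of all tested genes. The part of the muscle, fibroblast and chondrocyte marker differences in the members' result was not tested beyond these values.

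The summed levels of both ribosomal subunits followed the same course. For the 26 small subunit genes the sum was 775, 755 and 716 CPM in H3K9M and 632, 674 and 564 CPM in H3WT. For the 50 large subunit genes it was 1693, 1589 and 1575 CPM in H3K9M and 1306, 1443 and 1175 CPM in H3WT. Neither pair of groups overlapped. The ratio of large to small subunit sums stayed between 2.07 and 2.20 in the 6 libraries. The median log2 fold change was 0.26 for the small subunit, with 23 of 26 genes above 0 and 6 with an unadjusted p under 0.05. It was 0.32 for the large subunit, with 45 of 50 above 0 and 13 under that threshold. Of all tested genes, 49.6% were above 0 and 6.42% were higher at that threshold (68.5% and 14.4% in the shortest length class).

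**Figure D2:**
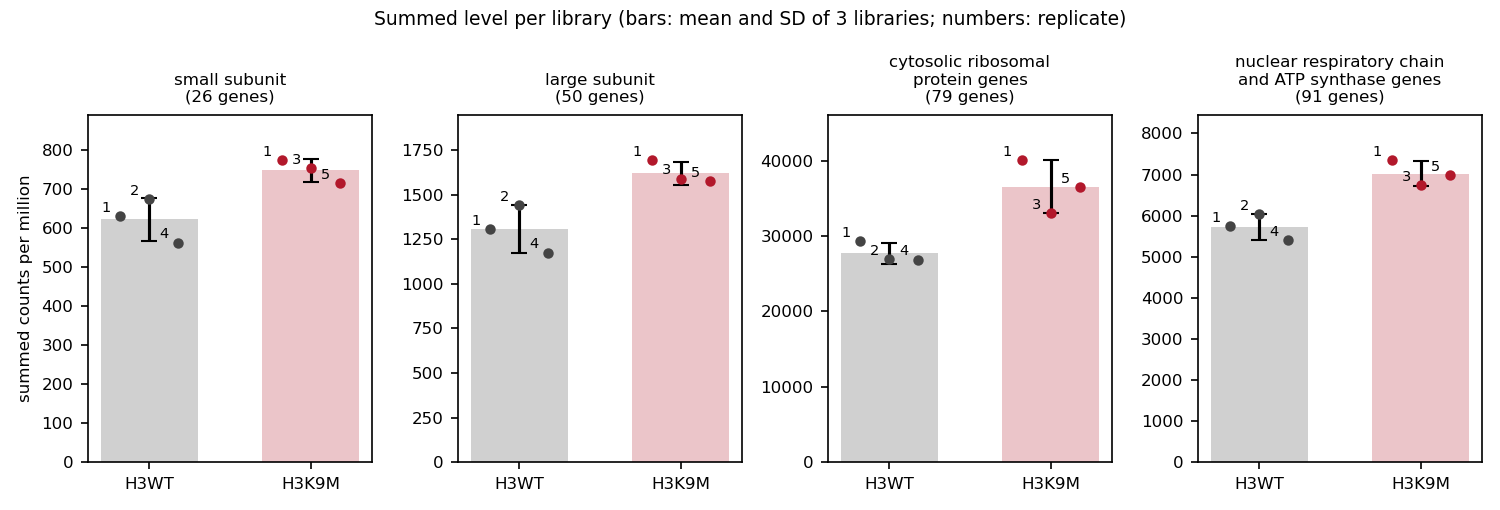
Summed level in CPM (y axis, linear from 0) of the small and large mitochondrial subunit genes, the cytosolic ribosomal protein genes and the nuclear respiratory chain and ATP synthase genes, in H3WT (grey) and H3K9M (red). Bars are means of 3 libraries with SD, points are libraries and numbers are replicates. In all 4 panels the lowest H3K9M library lies above the highest H3WT library, and H3WT replicate 4 is the lowest library in each.

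Single libraries differed in how they moved. Taking for each gene the deviation of its log2 CPM from its own mean over the 6 libraries, the median over the members was 0.21, 0.15 and 0.11 in H3K9M replicates 1, 3 and 5. It was -0.13, -0.05 and -0.29 in H3WT replicates 1, 2 and 4. H3WT replicate 4 was the lowest library for 45 of the 77 members, and H3K9M replicate 1 was the highest for 30. H3WT replicate 2 was split, being the highest of all 6 libraries for 16 members and above the gene's own mean for 34. In all, the highest library was an H3K9M library for 58 members and the lowest was an H3WT library for 72. Without H3WT replicate 4 the median log2 fold change of the members was 0.23. Without H3WT replicate 2 it was 0.38, with 27 members higher at an unadjusted p under 0.05, against 9.09% of all tested genes.

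**Figure D3:**
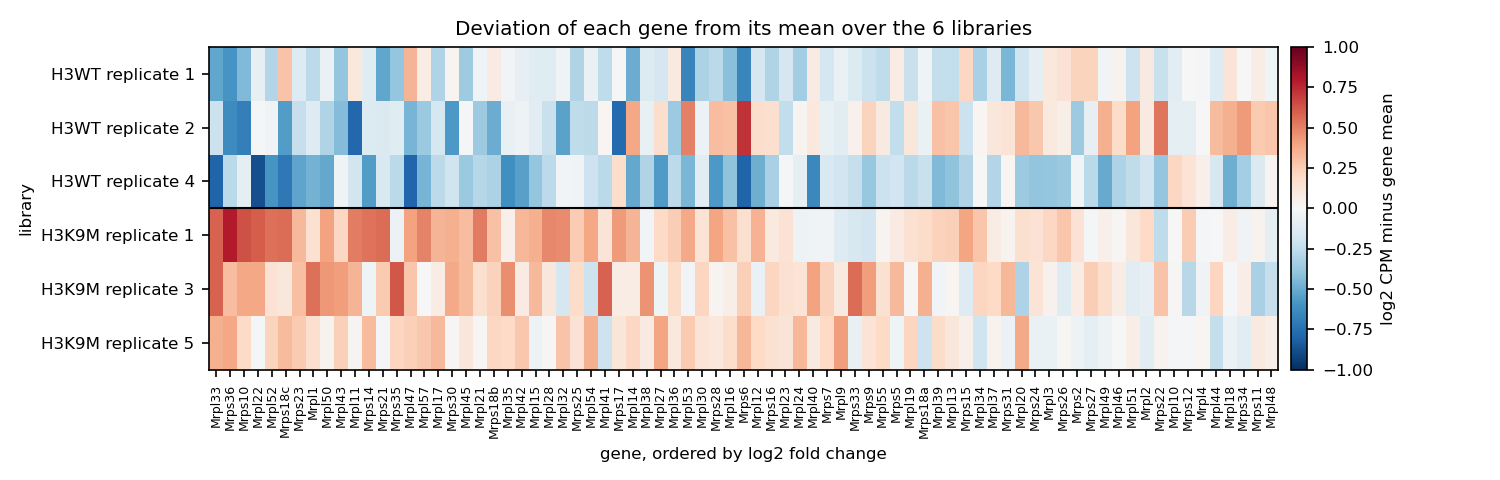
Deviation of log2 CPM from the gene's mean over the 6 libraries (color, blue lower and red higher) for the 77 members (x axis, ordered by log2 fold change) in each library (y axis, H3WT above and H3K9M below the black line). H3WT replicate 4 is blue for most genes, and H3WT replicate 2 is mixed, with Mrps6 its strongest red cell.

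Mrpl33, which encodes a small large-subunit protein with a bacterial counterpart, led the members (chr5:31596935-31664384, plus strand, mm10). Its level was 44.3, 44.4 and 37.7 CPM in H3K9M replicates 1, 3 and 5 and 20.5, 25.4 and 16.9 CPM in H3WT replicates 1, 2 and 4. Every H3K9M library was above every H3WT library. The log2 fold change was 1.01 (SE 0.19), a ratio of 2.01, with an adjusted p of 0.170 by edgeR. It was 1 of 2 members that DESeq2's Wald test called (adjusted p = 0.00372), in a fit that called 2.42% of the genes for which it gave an adjusted p. It was also the 1 member that edgeR called without H3WT replicate 2 (log2 fold change 1.18, adjusted p = 0.0424), where 0.639% of all tested genes were called. A noncoding transcript annotated on the same strand shares exon bases with it, and that gene is not a row of the table.

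Mrps36 (chr13:100735955-100744659, minus strand) was the other member that DESeq2 called (adjusted p = 0.0487; edgeR adjusted p = 0.222). Its level was 19.3, 13.8 and 14.6 CPM in H3K9M and 7.41, 7.21 and 9.25 CPM in H3WT, again with no overlap. The log2 fold change was 1.00 (SE 0.24). Its transcript matches 8 processed pseudogenes at 90% identity or more over at least 200 bases, and how reads shared with such copies were counted is not given in the sources used here. By that rule, 27 members match a transcript of another gene that they do not overlap. As the product of Mrps36 is now assigned to a metabolic enzyme complex, its difference is not one of a ribosomal subunit.

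Mrps10, whose product is a small-subunit protein with a bacterial counterpart (chr17:47368887-47381417, plus strand), came next. It stood at 42.7, 35.9 and 31.3 CPM in H3K9M and 20.2, 17.1 and 25.8 CPM in H3WT, and the groups did not overlap. The log2 fold change was 0.80 (SE 0.21). The Mrps10 transcript matches a processed pseudogene at 97.8% identity over 558 bases, and that pseudogene is not a row of the table. Mrps23, a small-subunit protein found in mitochondria and not in bacteria (chr11:88204388-88211507, plus strand), was at 37.3, 36.8 and 35.8 CPM against 27.3, 25.4 and 20.7 CPM. The H3K9M libraries lay within 2 CPM of each other, and the log2 fold change was 0.58 (SE 0.16). Both had adjusted p-values above 0.2 in edgeR (0.233 for Mrps10 and 0.244 for Mrps23).

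Of the large-subunit genes after Mrpl33, those with the smallest p were Mrpl17, Mrpl43, Mrpl52 and Mrpl45. Mrpl17, at the exit of the polypeptide tunnel (chr7:105803206-105811099, minus strand), stood at 62.4, 52.1 and 61.9 CPM in H3K9M and 40.03, 43.7 and 41.2 CPM in H3WT. Its log2 fold change was 0.50 (SE 0.13). Mrpl45, which lies at the tunnel exit and helps to hold the ribosome at the inner membrane (chr11:97315716-97329920, plus strand), was at 47.3, 47.6 and 41.4 CPM against 30.0, 38.0 and 29.6 CPM, with a difference of 0.48 in log2 (SE 0.16). Neither gene overlapped between groups. The Mrpl45 transcript matches a processed pseudogene at 91.5% identity over 851 bases, and that pseudogene is not a row of the table. Mrpl43 (chr19:45004829-45006442, minus strand) stood at 44.5, 51.3 and 45.4 CPM in H3K9M and 29.4, 28.4 and 37.3 CPM in H3WT, a difference of 0.57 in log2 (SE 0.16). It shares exon bases on the opposite strand with the helicase gene Twnk, listed in the table under the older symbol Peo1, whose own log2 fold change was -0.11 (SE 0.28). Mrpl52, the most abundant member per kilobase (chr14:54426909-54429756, plus strand), was at 68.3, 51.6 and 54.5 CPM against 38.2, 45.5 and 31.0 CPM, a difference of 0.60 in log2 (SE 0.19). All 4 had adjusted p-values between 0.239 and 0.296 in edgeR.

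The nuclear factors NRF1 and GABP, the latter of the ETS family, are known activators of genes for mitochondrial proteins, and their motifs were searched in the promoters. RefSeq promoter windows (build GRCm38.p6, the same assembly as mm10) matched 68 of the 77 members. In the 250 bases before the start, on either strand, the NRF1 motif (GCGC, any base, then TGCGC) was present for 10 of 68 members (14.7%), against 9.14% of tested genes and 4.23% of all genes with a window. The ETS motif CCGGAAGT was present for 10 members (14.7%), against 6.56% and 3.23%. The YY1 motif AAGATGGC was present for 4 (5.88%, against 2.41% and 1.83%), the E-box CACGTG for 5 (7.35%, against 9.85% and 6.86%) and the GC box GGGCGG for 33 (48.5%, against 64.4% and 35.4%). No motif is contained in another. Mrpl15, Mrps34, Mrpl13, Mrpl38, Mrpl54, Mrps35, Mrpl19, Mrps28 and Mrpl4 were not matched.

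The 120 bases before the start are shown for 4 members, 2 with an unadjusted p under 0.05 and 2 without, because all 4 hold one of the motifs, which is in capitals (the NRF1 motif in Mrpl45, Mrpl30 and Mrpl44, the ETS motif in Mrpl43). Each runs 5′ to 3′ on the strand of its gene.
Mrpl45, chr11:97315596-97315715, plus strand: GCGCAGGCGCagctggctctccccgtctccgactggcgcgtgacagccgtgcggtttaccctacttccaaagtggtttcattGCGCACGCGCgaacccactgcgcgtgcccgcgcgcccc
Mrpl43, chr19:45006443-45006562, minus strand: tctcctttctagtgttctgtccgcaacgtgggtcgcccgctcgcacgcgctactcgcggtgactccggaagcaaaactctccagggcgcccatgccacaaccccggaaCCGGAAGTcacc
Mrpl30, chr1:37890357-37890476, plus strand: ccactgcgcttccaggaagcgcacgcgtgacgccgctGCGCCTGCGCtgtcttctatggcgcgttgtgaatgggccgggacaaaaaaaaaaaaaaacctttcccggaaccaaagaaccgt
Mrpl44, chr1:79775898-79776017, plus strand: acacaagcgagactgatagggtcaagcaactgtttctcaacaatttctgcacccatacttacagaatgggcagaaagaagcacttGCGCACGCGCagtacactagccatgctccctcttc
Mrpl45 had a log2 fold change of 0.48, Mrpl43 of 0.57, Mrpl30 of 0.32 (SE 0.15) and Mrpl44 of -0.02 (SE 0.23). For the 10 members with the NRF1 motif the median log2 fold change was 0.36, 4 of them with an unadjusted p under 0.05, and the 58 without it had a median of 0.29, with 15 under that threshold. For the ETS motif the medians were 0.09 with and 0.32 without, with 1 of 10 and 18 of 58 under the threshold. Neither difference was tested. A match is a description of the letters and not evidence that a factor binds.

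Within the large subunit, 3 structural groups were described. The 8 genes listed around the polypeptide exit tunnel were Mrpl17, Mrpl22, Mrpl23, Mrpl24, Mrpl39, Mrpl44, Mrpl45 and Mrpl47. Of these, 7 were above 0, with a median log2 fold change of 0.38. An unadjusted p under 0.05 was found for 2 (Mrpl17 and Mrpl45, above), and 6.42% of all tested genes were higher at that threshold. The list leaves out Mrpl4, of the tunnel wall, which was at -0.02 (SE 0.12). Of the 5 stalk genes, whose products bind the translation factors, 4 were above 0 with a median of 0.32. Mrpl11 was at 0.55 (SE 0.27), Mrpl54 at 0.38 (SE 0.19), Mrpl53 at 0.32 (SE 0.32), Mrpl12 at 0.31 (SE 0.20) and Mrpl10 at -0.0059 (SE 0.14). None of these 5 had groups without overlap, and 0 had an unadjusted p under 0.05. Mrpl10, which anchors the stalk, was nearly level over the 6 libraries at 43.3, 43.6 and 42.7 CPM in H3K9M and 39.9, 40.5 and 49.7 CPM in H3WT. Of the 7 genes for the central protuberance, which faces the head of the small subunit, 5 were above 0, with a median of 0.25 and 0 under an unadjusted p of 0.05.

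By evolutionary origin the groups lay close together. For the 30 large-subunit genes with a bacterial counterpart the median log2 fold change was 0.32 (27 above 0) and the 20 mitochondria-specific ones 0.34 (18 above 0). In the small subunit the medians were 0.28 for the 16 genes with a bacterial counterpart (14 above 0) and 0.22 for the 10 mitochondria-specific ones (9 above 0). The S18 proteins come in 3 forms in mitochondria, encoded by Mrps18a, Mrps18b and Mrps18c. The lists used here place Mrps18a and Mrps18b with the mitochondria-specific genes. Mrps18c is placed with those that have a bacterial counterpart, so the split by origin separates these related genes. Mrps18b was at 24.2, 23.3 and 23.0 CPM in H3K9M and 21.1, 14.1 and 15.9 CPM in H3WT. These groups did not overlap, and the difference was 0.47 in log2 (SE 0.20). A processed pseudogene matches it at 99.8% identity over 417 bases and held 103 counts in all. Mrps18c was at 0.60 (SE 0.33) and Mrps18a at 0.24 (SE 0.20), both with overlapping groups.

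The 8 members below 0 were all within their error. Mrpl48, of the central protuberance, was at 20.3, 18.5 and 22.8 CPM in H3K9M and 21.1, 26.3 and 22.2 CPM in H3WT. The groups overlapped, and the log2 fold change was -0.18 (SE 0.18). Mrps11 was at -0.13 (SE 0.20), Mrps34 at -0.09 (SE 0.21) and Mrpl18 at -0.04 (SE 0.22). The other 4 were Mrpl44, Mrpl4, Mrps12 and Mrpl10, between -0.02 and -0.0059. Scaled by library size alone, which shifts the median of all tested genes to 0.05, only Mrpl48, Mrps11 and Mrps34 stayed below 0.

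Mrpl4, a protein of the tunnel wall, had the smallest spread of all members over the 6 libraries, with an SD of 0.03 in log2 CPM and levels from 41.3 to 43.8 CPM. Mrpl10 (SD 0.11) and Mrpl2 (SD 0.15) followed. Mrps6 had the largest spread (SD 0.60), because H3WT replicate 2 was at 60.0 CPM against 23.1 and 20.8 CPM in the other H3WT libraries, with 40.5, 42.9 and 45.7 CPM in H3K9M. Mrps6 shares exon bases on the same strand with Slc5a3, the gene of an inositol transporter. How reads in the shared part were counted is not given in the sources used here. Mrpl33 (SD 0.60) and Mrps36 (SD 0.58) came next in spread, as their groups stood apart.

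Several members lie close to other genes. For 25 members the start lies within 500 bases of the start of a gene on the opposite strand, 23 of these partners being no members and 1 pair being Mrpl46 with Mrps11. The 23 partners had a median log2 fold change of 0.05, 12 above 0 and 11 below. Only 2 had an unadjusted p under 0.05, both higher in H3K9M, where 6.42% of all tested genes were higher at that threshold. The 2 were Psma2, a proteasome subunit gene that faces Mrpl32 (0.58, SE 0.15), and Fau, which encodes a cytosolic ribosomal protein and faces Mrpl49 (0.54, SE 0.12). Mrpl32 itself was at 0.40 (SE 0.24) and Mrpl49 at 0.08 (SE 0.23). The median of the members with such a partner was 0.27.

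The members have short transcripts, and short transcripts as a class were higher in H3K9M. The median length of the longest protein-coding transcript was 1316 bases for the members and 3118 bases for all tested genes with a known length. Split into 5 classes of equal size by length, all tested genes had median log2 fold changes of 0.19, 0.05, -0.01, -0.06 and -0.13 from the shortest to the longest class. In the shortest class, 14.4% of genes were higher and 1.66% lower at an unadjusted p under 0.05. Of the 77 members, 49 fell into that class, with a median of 0.28. Of these 49, 42 were above 0, against 68.5% of all genes in the class. The 28 longer members had medians of 0.27, 0.52, 0.24 and 0.44 in the following classes (9, 8, 9 and 2 genes), each above the median of all genes in its class. Some of the 28 are short by the median of their protein-coding transcripts, below the shortest class's limit of 1734 bases. They are Mrpl17 (744 bases, in the longest class here), Mrpl11 (663), Mrps17 (851), Mrpl48 (865), Mrpl30 (662), Mrpl49 (1311), Mrps27 (1366) and Mrpl45 (1462). Across the members the rank correlation of log2 fold change with length was -0.06 (n = 77 genes), and across all tested genes it was -0.26. Both are descriptions over genes that share the same 6 libraries.

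**Figure D4:**
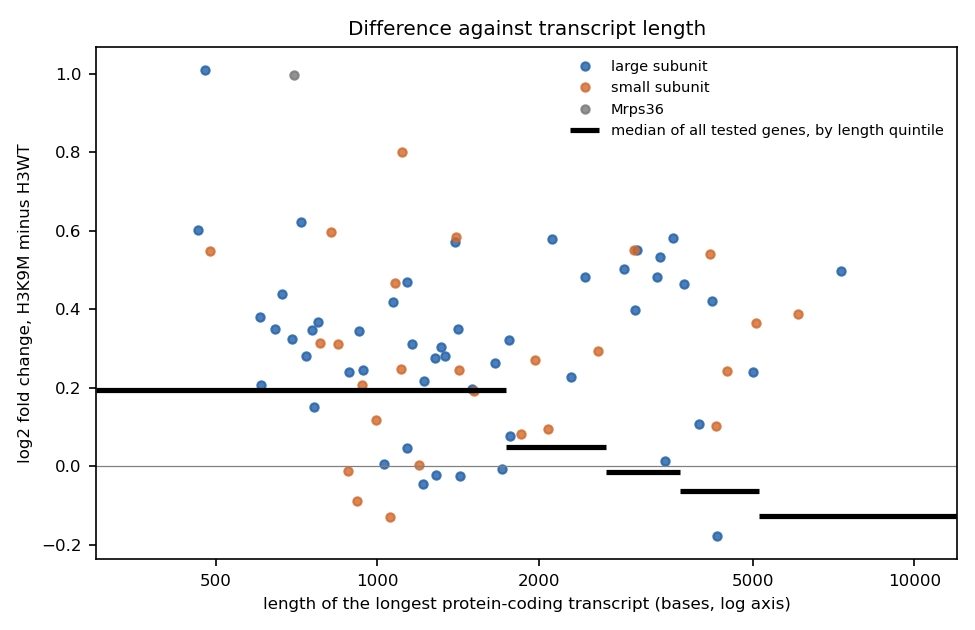
Log2 fold change (y axis, H3K9M minus H3WT) of the 77 members against the length of the longest protein-coding transcript (x axis, bases, log scale). Points are genes, blue for the large subunit, orange for the small subunit and grey for Mrps36, and black lines are the medians of all tested genes in 5 equal length classes. The lines step down from 0.19 to -0.13, and most points outside the shortest class lie above the line of their class. Some of these points, such as Mrpl17, are genes whose median protein-coding transcript is short enough for the shortest class.

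Removing the trend with length in each library reduced the difference. With an offset on the length of the longest transcript, the median log2 fold change of the members was 0.11, against -0.0087 for all tested genes, and 57 members were above 0 and 20 below. At an unadjusted p under 0.05, 15 members were then higher and 0 lower, against 4.87% of all tested genes higher. With offsets on length and GC content together the median was 0.11 and 10 members were higher at that threshold, against 4.54% of all tested genes, with 54 above 0 and 23 below. The longest transcript can misstate the length in use, as for Mrpl17, whose longest transcript has 7300 bases and whose protein-coding transcripts have a median of 744 bases. With an offset on the median length of a gene's protein-coding transcripts, chosen after seeing the data, the median of the members was 0.22, with 64 above 0 and 15 higher at an unadjusted p under 0.05, against 5.36% of all tested genes. Mrpl33 was at 1.01 without an offset, at 0.65 with the longest-transcript offset and at 0.84 with the median-length offset. Mrps36 was at 0.66 and 0.84, and Mrps10 at 0.57 and 0.69, under these 2 offsets. Why short transcripts differed between the groups was not tested.

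**Figure D5:**
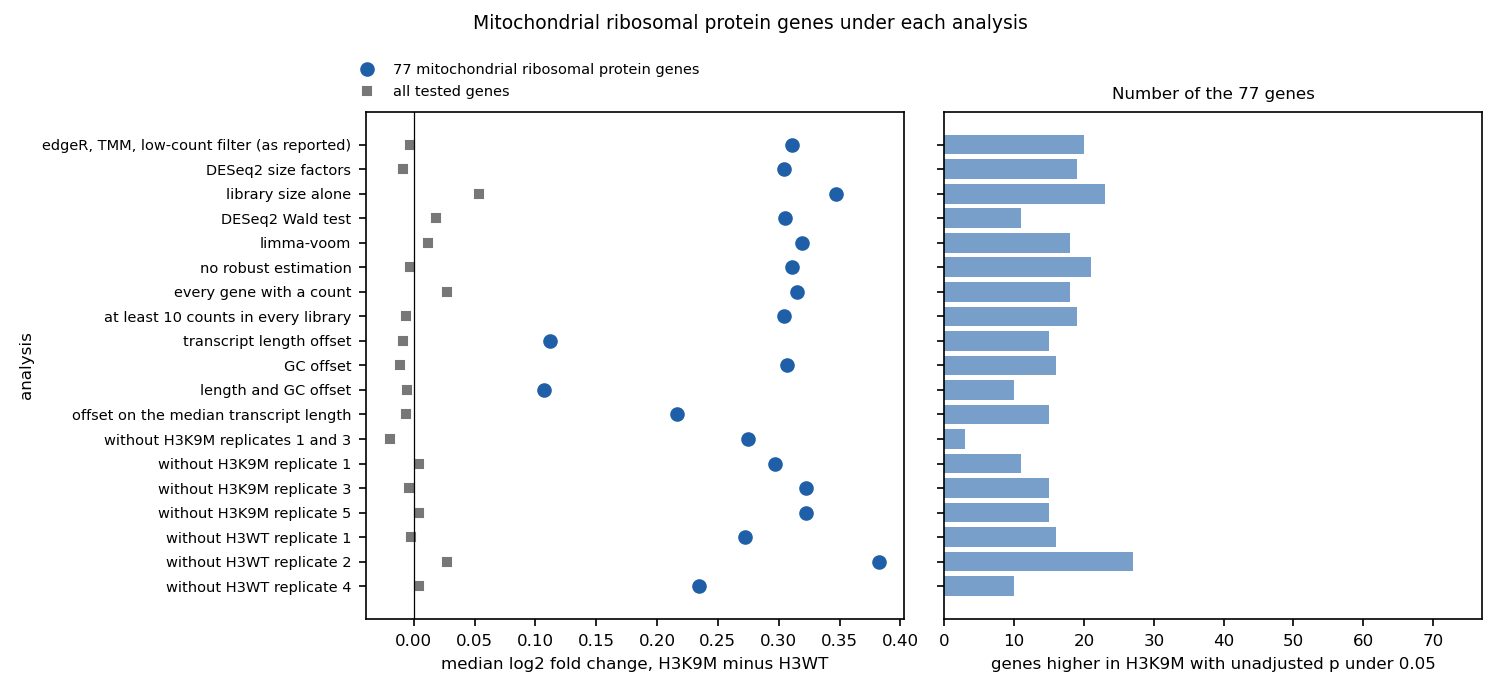
Left, median log2 fold change (x axis, H3K9M minus H3WT) of the 77 members (blue) and of all tested genes (grey) under each analysis (y axis). Right, number of the 77 members higher in H3K9M at an unadjusted p under 0.05, on an axis from 0 to 77. The members' median is lowest with the length offsets (0.11) and highest without H3WT replicate 2 (0.38).

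Other genes of short transcripts and of the same pathway were set beside the members. The cytosolic ribosomal protein genes, whose longest transcripts have a median of 906 bases, had a median difference of 0.45 in log2. All 79 tested genes were above 0, 63 with an unadjusted p under 0.05 and 73 with groups that did not overlap. Of all tested genes, 6.42% were higher at that threshold (14.4% in the shortest length class) and 10.7% were apart and higher. With the longest-transcript offset their median was 0.20. The nuclear genes of the respiratory chain and ATP synthase, with a median transcript of 926 bases, had a median of 0.37, with 87 of 91 above 0 and 42 higher at an unadjusted p under 0.05. With that offset their median was 0.12. No gene of any of these lists had an adjusted p under 0.05 by edgeR. No row of the table is named as a messenger RNA of mitochondrial DNA, so the proteins the mitochondrial ribosome makes are not analysed here.

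Mitochondrial ribosomal proteins known by other symbols followed the members. All 6 tested (Dap3, Ptcd3, Chchd1, Aurkaip1, Gadd45gip1 and Ict1) were above 0, with a median log2 fold change of 0.37 and a median longest transcript of 2494 bases. Chchd1, of the small subunit, was at 0.58 (SE 0.21) and Aurkaip1, of the small subunit, at 0.48 (SE 0.15), the 2 with an unadjusted p under 0.05. Of all tested genes, 6.42% were higher at that threshold. With the longest-transcript offset the median of the 6 was 0.27.

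The genes that build and serve this ribosome stood closer to 0, but their transcripts are longer. The median longest transcript was 2275 bases for the assembly genes, 2588 for the translation factors and 3282 for aminoacyl-tRNA synthesis. For the members it was 1316 bases, and the part of length in this contrast was not tested. The 29 tested genes of mitoribosome assembly and ribosomal RNA modification had a median of 0.13, with 19 above 0. An unadjusted p under 0.05 was found for 2, both higher in H3K9M. That is 6.9% of the list, near the 6.42% of all tested genes that were higher at that threshold. The 2 genes were Fastkd2, an RNA-binding protein needed for the large subunit (0.64, SE 0.21), and Malsu1, a large-subunit assembly factor (0.58, SE 0.21). The 13 mitochondrial translation factors had a median of 0.15, with 10 above 0, led by Gfm2, a ribosome recycling factor (0.42, SE 0.17), and Mtfmt, which formylates the initiator tRNA (0.42, SE 0.20). The 20 genes of mitochondrial aminoacyl-tRNA synthesis had a median of -0.03, with 9 above 0. Yars2 (0.45, SE 0.22) and Wars2 (0.41, SE 0.23) had the smallest p of these, and 0 genes of the list were under an unadjusted p of 0.05.

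The 20 tested genes of mitochondrial DNA transcription and RNA stability had a median of 0.22, with 16 above 0 and 1 gene under an unadjusted p of 0.05 in each direction. Of all tested genes, 6.42% were higher and 5.77% were lower at that threshold. Hsd17b10, a subunit of the mitochondrial enzyme that trims tRNA 5′ ends, was at 0.56 (SE 0.16), and Polg, the mitochondrial DNA polymerase, at -0.32 (SE 0.11). Tfam, which packages mitochondrial DNA and starts its transcription, was at 0.29 (SE 0.17), with all H3K9M libraries (26.7, 28.4 and 24.2 CPM) above all H3WT libraries (24.03, 20.03 and 20.8 CPM). The 10 tested regulators of mitochondrial biogenesis had a median of 0.01, with 6 above 0 and 0 with an unadjusted p under 0.05. Nrf1 was at 0.19 (SE 0.17), Gabpa at 0.23 (SE 0.13) and Gabpb1 at 0.37 (SE 0.20). Pprc1 was at -0.05 (SE 0.21), Esrra at 0.0011 (SE 0.16) and Myc at 0.02 (SE 0.14). The coactivators Ppargc1a (0.87, 1.40 and 4.08 CPM in H3K9M, 0.73, 8.56 and 0.77 CPM in H3WT) and Ppargc1b (at most 3.08 CPM) were near the lower limit of the filter.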

How the data were processed

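The deposited table holds raw read counts per gene symbol for the 6 libraries. Per the submitters' processing notes, the authors used HISAT2, featureCounts, DESeq2 and the mm10 build; versions, annotation and strand setting are not given in the sources used here. The counts were analysed in edgeR 4.0.16 (R 4.3.3) with TMM scaling (factors 0.956 to 1.07), filterByExpr, which kept 13761 genes, and the robust quasi-likelihood test of H3K9M against H3WT, adjusted by Benjamini-Hochberg over all of them. CPM values are scaled by TMM. Transcript lengths, overlaps and neighbours came from GENCODE M21, and promoters from RefSeq. Alternatives were DESeq2 1.42.0, its size factors, limma-voom (limma 3.58.1), library size alone, other filters, offsets on length and GC content, and leaving out each library. Members, lists and structural groups were chosen with earlier results of these data known. Named members are the 8 with the smallest p in each direction, the 3 with the most and fewest CPM per kilobase, the 3 with the largest and smallest SD, the S18, stalk and Mrps36 genes, and in the pathway lists the 2 genes with the smallest p and the main regulators. Other genes named were chosen after their values were seen. The depth gives a median of 482 counts per member and library.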

Additional observations from a re-analysis of the deposited data

How the results depend on the processing

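No paired analysis was possible because the groups share fewer than 2 replicate numbers. The number of members with an adjusted p under 0.05 was 0 in edgeR (20 at an unadjusted p under 0.05), also at an adjusted p under 0.10, and 2 with the DESeq2 Wald test (Mrpl33 and Mrps36), which had 11 members at an unadjusted p under 0.05. Leaving out 1 library gave 0 to 1 called members, the 1 being Mrpl33 without H3WT replicate 2. Between 10 and 27 members then had an unadjusted p under 0.05, where 4.35% to 9.09% of all tested genes were higher. Between 29 and 44 members were without overlap, fewer libraries making overlap rarer. Of all tested genes, 14.3% to 19.5% were then apart and higher and 12% to 17.9% apart and lower. The median log2 fold change of the members, 0.31, was 0.11 with the length offset, 0.11 with length and GC content and 0.22 with the median-length offset, and stayed above 0 in every analysis run. With length and GC content, 10 members had an unadjusted p under 0.05, against 4.54% of all tested genes higher. In that fit 15 members were apart and higher and 0 apart and lower, against 8.09% and 7.46% of all tested genes. With the length offset alone, 16 members were apart and higher and 2 apart and lower, against 8.76% and 8.34%. Without H3K9M replicates 1 and 3 together, 3 had an unadjusted p under 0.05 (that choice and the median-length offset were added after seeing the data). The signs of small differences turned, as did those of Ppargc1a and Ppargc1b, which were near the lower limit of the filter. Ppargc1b was at 1.01 to 2.46 with 1 library left out, and the cause of these changes was not tested. Esrra was at -0.0050 with DESeq2 size factors, -0.0052 with the Wald test, -0.0086 with limma-voom, -0.0039 with at least 10 counts in every library, -0.051 with the length offset, -0.14 with the median-length offset and -0.010 without H3K9M replicates 1 and 3. With library size alone Mrpl18 was at 0.0034, Mrpl4 at 0.036, Mrpl44 at 0.031, Mrps12 at 0.041, Mrpl10 at 0.054 and Pprc1 at 0.0049. With limma-voom Mrpl10 was at 0.0045, Mrpl2 at -0.0082 and Ppargc1a at 0.0017. With the length offset Mrpl2 was at -0.24, Mrps18a at -0.046, Pprc1 at 0.034 and Myc at -0.021. With GC content Mrps34 was at 0.016, Mrpl4 at 0.079 and Mrps12 at 0.039. With length and GC content Mrpl2 was at -0.15 and Pprc1 at 0.14. With the median-length offset Mrpl2 was at -0.10 and Myc at -0.014. Without H3K9M replicates 1 and 3, Mrps11 was at 0.024, Mrpl4 at 0.016, Mrpl2 at -0.11, Mrps18a at -0.093, Ppargc1a at 0.29, Ppargc1b at -0.53, Pprc1 at 0.29 and Myc at -0.054. Leaving out 1 library gave -0.10 to 0.071 for Mrpl2, -0.081 to 0.083 for Esrra, -0.062 to 0.12 for Myc, -0.22 to 0.00038 for Mrps11, -0.034 to 0.0017 for Mrpl4, -0.15 to 0.12 for Mrps12, -0.24 to 0.13 for Pprc1, -0.13 to 0.16 for Mrpl44, -0.062 to 0.11 for Mrpl10, -0.25 to 0.15 for Mrpl18, -0.25 to 0.15 for Mrps34 and -1.54 to 1.51 for Ppargc1a. With 3 libraries per group, the standard error of a member's log2 fold change was 0.12 to 0.39, with a median of 0.20. The small differences of the 8 members below 0 thus cannot be told from 0. No single member above 0 had an adjusted p under 0.05 either in edgeR with all 6 libraries.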
